A study of Homo sapiens with 8 samples.

Results

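The comparison described here set cocaine against vehicle in the two-dimensional co-culture of a study of neural cultures grown from H1 cells, a human embryonic stem cell line. Its members were the cells whose names start with 2DCocuAcCoc or 2DCocuVehic, with the text before the barcode suffix, a culture tag, taken as the sample. These were 3495 cells in 4 AcCoc tags and 3790 cells in 4 Vehic tags, together 7285 of the 43693 cells and 8 of the 46 tags of the series. The study asked how such cultures are composed and how their transcripts respond to dopamine, cocaine and morphine, using split-pool single-cell RNA sequencing, in which fixed cells collect their barcode over several rounds. The labels name the treatments but do not spell out the tags: AcCoc is read as cocaine, AcMor as morphine and Vehic as vehicle, with no dose or exposure time given. They do not say which cells made up the co-culture. Every group came from this 1 line, so differences between people are not sampled, and the dissociation in the labels is described for organoids. The 4 AcMor tags of the same co-culture (3129 cells) served to estimate the spread and as a second treatment. For 1 test at the end, 7 AcCoc and Vehic tags of fused organoids (tags beginning 3DFusi, 6448 cells) were used. The AcMor tags of fused organoids entered that fit as well, to estimate the spread.

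Cocaine blocks the dopamine, serotonin and noradrenaline transporters, which clear these transmitters from the synapse, and at higher levels it blocks voltage-gated sodium channels. In dopamine-receiving neurons it is best known for raising immediate early genes such as FOS through dopamine receptors. In the developing cortex, glutamatergic neurons arise from dividing progenitors through a chain of basic helix-loop-helix factors, NEUROG2 and then NEUROD1, NEUROD2 and NEUROD6, with TBR1 marking deep-layer neurons, while radial glia later give rise to astrocytes.

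Total counts ranged from 7880353 to 15819204 over the AcCoc tags and from 8594011 to 16313041 over the Vehic tags, from 473 to 1263 cells a tag. The median count per cell was 10223 to 14139 in AcCoc and 7994 to 10789 in Vehic, so the AcCoc cells were on the whole the deeper ones. Every tag held cells from all 8 sequenced sublibraries, and no tag shared its own barcodes of the third block with another tag. Of 41192 distinct barcodes 2393 occurred in more than 1 sublibrary, and 0 combinations of barcode and sublibrary occurred in more than 1 tag. The labels do not say that tags were separate cultures, so the p-values measure the spread between tags, which may be technical. The files hold captured cells with at least 1006 genes and at most 9.998% mitochondrial counts, and a share below is a share of those. The part of these limits in the shares was not tested.

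Neurons made up far more of the captured cells with cocaine. Cortical excitatory neuron-like cells formed 2 main clusters, the larger marked by SLC17A7, SLC17A6, NEUROD2, NEUROD6 and TBR1. They were 26.4, 29.1, 36.6 and 36.8% of the 4 AcCoc tags and 11, 10.4, 4.91 and 7.5% of the 4 Vehic tags. The lowest AcCoc tag held more than the highest Vehic tag. The means were 32.2% ± 5.31 and 8.47% ± 2.83 (SD, n = 4 each), a difference of 23.7 percentage points with the smallest p the exact two-sided permutation test of 4 against 4 can give, 0.0286 (0.0408 after Benjamini-Hochberg adjustment over 10 classes). A class called neuron-like, which carried SNAP25, GAP43, RBFOX3 and ELAVL4 and was led by the glycine transporter SLC6A5 and the transcription factor PAX2, was 13.7% ± 1.45 in AcCoc and 8.05% ± 2.29 in Vehic, again without overlap (exact permutation p 0.0286, adjusted 0.0408). All neuron classes together were 47.2% ± 6.76 and 16.8% ± 4.89.

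Some non-neuronal classes held smaller shares with cocaine. The shares of a tag add up to a fixed total, so a larger neuron share lowers the others. The part of this in the smaller shares was not tested. Astrocyte-like cells were 17, 17.1, 13.7 and 14.4% of the AcCoc tags and 23.6, 20.6, 24.6 and 19.7% of the Vehic tags. Their main cluster was marked by GFAP, ALDH1L1, GJA1, SPARCL1 and CD44. Cluster 3, led by ALDH1L1, ME1, TTC6 and PIK3C2G and left unnamed because too few markers of any class led it, was 14.5% ± 2.64 against 31.2% ± 3.45. Both classes were lower in every AcCoc tag than in any Vehic tag (exact permutation p 0.0286, adjusted 0.0408 for each). For astrocyte-like cells this rested on the clustering: at resolution 1.2 the difference went from -6.55 to -0.94 percentage points and did not pass (exact permutation, adjusted p 0.0714), while at resolution 0.4 it was -7.07 and passed (exact permutation, adjusted p 0.0429). Cluster 7, which held 79.95 to 82.59% of the class in each group and was led by RASSF9 and CYTOR, had 5 of 10 astrocyte markers, and at resolution 1.2 a cluster with those leading genes took a ciliated or ependymal name on 4 of 8 markers. Cycling cells, which carried all 8 cell cycle markers, were 10.3% ± 1.98 and 9.37% ± 0.96 and did not pass (exact permutation p 0.429). Mesenchymal-like cells were 2.24% ± 0.632 and 5.05% ± 2.02 and did not pass either (exact permutation p 0.0571, adjusted 0.0714). Clusters 32 and 42, of which 48.9% and 69.4% of the co-culture cells were called as doublets, were 2.83% ± 0.48 against 5.07% ± 1.14 and 1.19% ± 0.65 against 3.16% ± 0.746.

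Cells can also be sorted into classes by the very genes that differ between the groups, so the clustering was repeated without any of the 1305 genes called between AcCoc and Vehic in the whole culture or in a class, a choice made after seeing the data. The excitatory class was then 34.7% ± 5.31 of the AcCoc cells and 12.9% ± 3.22 of the Vehic cells. Cluster 3 was 15.6% and 31.6%, and all neuron classes were 49.5% and 20.8%. The direction and the side of the threshold were kept for each of these classes (exact permutation, adjusted p 0.0367). The excitatory clusters were still named from markers that include called genes, such as NEUROD6 and TBR1. Whether the genes left in carried the same difference was not tested. The astrocyte-like class did not keep its cells in that clustering: its overlap with the first was 0.407 (shared cells over cells in either), and the cluster led by RASSF9 and CYTOR again took the ciliated or ependymal name. The clusters that took the astrocyte-like name there held 6.77% of the AcCoc cells and 10.1% of the Vehic cells (exact permutation, adjusted p 0.0367).

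**Figure D1:**
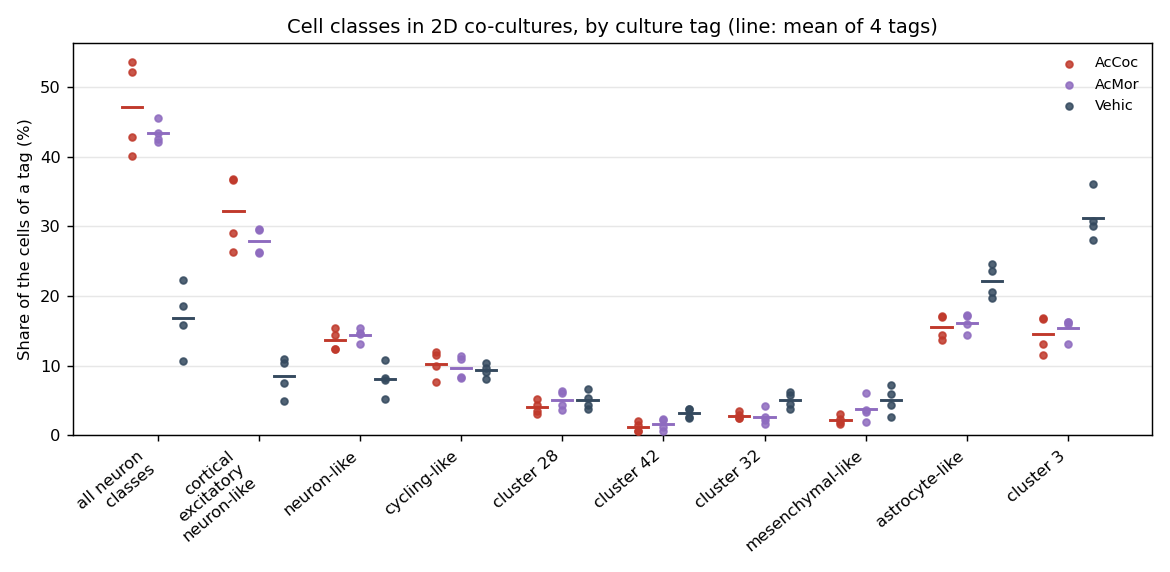
Share of captured cells in each cell class, in percent of a tag's cells, for the AcCoc, AcMor and Vehic tags of the co-culture (points are tags, lines are means of 4 tags). The 4 AcCoc tags sit between 26.4 and 36.8% for the excitatory class, all above the 4 Vehic tags, and between 11.5 and 16.8% for cluster 3, all below them.

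The largest rises with cocaine, summed over all cells, were ranked among called genes with a symbol, no overlap between the tags and at least 5 CPM. Under this rule the 12 genes that rose most were all highest in the excitatory class, among the 5 classes tested for genes. Levels in the other classes were not compared, here or below. NEUROD6, a transcription factor of these neurons, was at 11.7, 17.5, 24.6 and 21.3 CPM (counts per 1000000 of a tag after edgeR's normalization) in the AcCoc tags. In the Vehic tags it was at 6.39, 6.73, 2.3 and 6.37 CPM, with no overlap between the groups. It rose by 1.76 on the log2 scale (SE 0.26, adjusted p 0.00228, edgeR's quasi-likelihood test over all genes). TBR1, the deep-layer factor, was at 27, 30.8, 50.2 and 48.9 CPM against 14, 14.1, 8.2 and 11.1 CPM, a rise of 1.71 (SE 0.205, adjusted p 0.000704). NEUROD2, which precedes it in neuronal differentiation, was at 8.01, 9.4, 16.6 and 14.8 CPM against 5.4, 4.54, 3.4 and 3.36 CPM, a rise of 1.504 (SE 0.261, adjusted p 0.00462). In all 3 factors AcCoc tags 3 and 4 were above AcCoc tags 1 and 2, as the share of excitatory cells was. L1CAM, a cell adhesion molecule of growing axons, was at 35.8, 28.3, 62.6 and 77.6 CPM against 23.8, 19.7, 16.2 and 10.4 CPM, a rise of 1.51 (SE 0.302, adjusted p 0.0115). PROKR2, a prokineticin receptor, rose by 1.59 from 1.43 to 2.61 CPM in the Vehic tags to 4.35 to 8.12 CPM in the AcCoc tags. The 12 largest rises also held BHLHE22 (1.69), MEX3B (1.46), EPHB6 (1.42), PRDM8 (1.40), CDHR1 (1.39) and AMER2 (1.38). Of 21032 genes tested, 1281 passed at an adjusted p of 0.05 (6.09%), of which 757 were higher in AcCoc (3.6% of those tested) and 524 lower (2.49%). In 2710 genes (12.9%) the AcCoc and Vehic tags did not overlap, 7.25% of genes with AcCoc above and 5.64% with AcCoc below. The number of genes called rested on single tags: 404 were called without Vehic tag 3, 431 without AcCoc tag 3, 752 without Vehic tag 1 and 779 without AcCoc tag 4. L1CAM lost its call without Vehic tag 3 (adjusted p 0.0525, edgeR), and the other 11 rises kept theirs when any 1 tag was left out.

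NEUROD6 lies on chromosome 7 from 31337461 to 31340894, TBR1 on chromosome 2 from 161416094 to 161425870 and NEUROD2 on chromosome 17 from 39603536 to 39609777 (GENCODE v29, hg38). RefSeq starts their transcripts further in, and E-boxes, CANNTG, the word that basic helix-loop-helix factors such as the NEUROD proteins bind, were counted in the 250 bases before RefSeq's start in GRCh38.p14: chr7:31340727-31340976 (minus strand), chr2:161416047-161416296 (plus) and chr17:39607921-39608170 (minus). By the longer GENCODE models, 168, 203 and 250 bases of these windows are exonic. The window of NEUROD6 holds 4 such words, that of TBR1 2 and that of NEUROD2 3, and CANNTG reads as CANNTG on both strands. The sites of CAGATG before the NEUROD genes and both words before TBR1 are shown because these genes rose together, each word in capitals with 12 bases on either side.
NEUROD6, chr7:31340824-31340853, minus strand: ttacagggatgcCAGATGatcagtgcagaa
NEUROD6, chr7:31340751-31340780, minus strand: tgacgtcactagCAGATGgcatgggtacca
NEUROD2, chr17:39608041-39608070, minus strand: agtagagagtgaCAGATGgcggcgggtccc
TBR1, chr2:161416097-161416126, plus strand: gctaccaggagcCAGGTGattatcctaatt
TBR1, chr2:161416227-161416256, plus strand: gctgcatagtgtCAATTGgccaatctcttc
CAGATG (with CATCTG, its reading on the other strand, a subset of CANNTG) occurs 2 times before NEUROD6, 1 time before NEUROD2 and not in the TBR1 window. Such words are common: CANNTG is in 61.8% of all 35116 promoter windows of this length, in 55.9% of the 18959 windows of tested genes, in 57.9% of the 879 windows of genes called higher and in 55.5% of the 631 windows of genes called lower. CAGATG is in 9.47% of windows of tested genes, in 9.10% before genes called higher and in 11.7% before genes called lower. A gene can have several starts, and a match describes the letters only.

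Under the same rule, the 12 genes that fell most were highest, among the 5 tested classes, in astrocyte-like cells or in cluster 3. Mesenchymal-like cells were not among the classes compared. COL5A3, a fibrillar collagen chain, was at 16.7, 16.1, 14.6 and 11.5 CPM in the AcCoc tags and at 38, 33.9, 35.6 and 26.5 CPM in the Vehic tags. The groups did not overlap, and the change was -1.18 on the log2 scale (SE 0.161, adjusted p 0.00188, edgeR). CD82, a tetraspanin of the cell membrane, was at 5.09, 6.25, 5.1 and 6.07 CPM against 12.5, 13.2, 15 and 11 CPM, a change of -1.198 (SE 0.192, adjusted p 0.00278). KCNK13, a potassium leak channel, was at 14.2, 8.33, 6.99 and 5.68 CPM against 18.1, 20, 22.9 and 29.3 CPM, a change of -1.33 (SE 0.233, adjusted p 0.00467). The highest AcCoc tag of KCNK13 came close to the lowest Vehic tag, while those of COL5A3 and CD82 lay well apart. The other 9 of the 12 largest falls were LINC00551 (-1.42), NRK (-1.35), GALR1 (-1.25), FER1L4 (-1.24), CYTOR (-1.18), SLC2A1-AS1 (-1.13), HPSE2 (-1.09), EGFLAM (-1.06) and TWIST2 (-1.03). EGFLAM lost its call without AcCoc tag 3 or Vehic tag 4 (adjusted p 0.0969 and 0.0568, edgeR) and TWIST2 without AcCoc tag 3 (adjusted p 0.0690, edgeR).

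**Figure D2:**
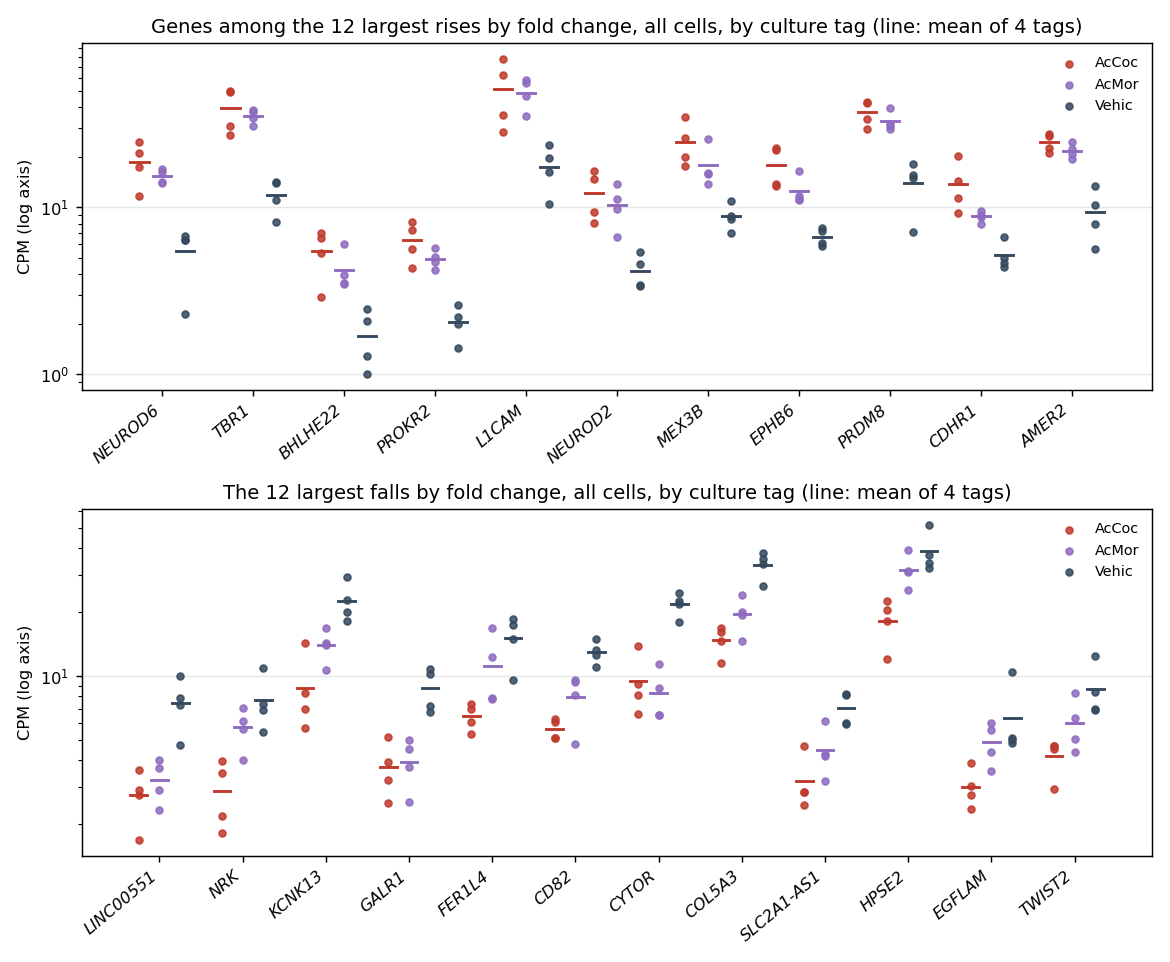
Level in CPM (log axis) of genes among the 12 that rose most and of the 12 that fell most in AcCoc against Vehic, 1 point per tag, with AcMor beside them and a line at the mean of 4 tags. In each gene shown the 4 AcCoc tags lie on 1 side of the 4 Vehic tags, which the naming rule required; NEUROD6 and TBR1 are among the rises and COL5A3 and CD82 among the falls.

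The called genes were placed by the class, among the 5 tested ones only, in which the pooled co-culture cells expressed them most. Of the 757 genes called higher, 468 (61.8%) were highest in the excitatory class, against 15.3% of all genes tested. Of the 524 genes called lower, 253 (48.3%) were highest in astrocyte-like cells, against 22.2%, and 246 (47.0%) in cluster 3, against 18.4%. Of the 12 largest falls, 5 were highest in astrocyte-like cells and 7 in cluster 3.

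Genes were then read in lists grouped by role. Each count stands beside the 3.6% of all genes that were called higher and the 2.49% called lower. Lists and members were chosen with earlier results of these data known, so these counts are a description and no independent test. The glutamatergic list also holds markers that name the excitatory class, among them SLC17A7, SLC17A6, NEUROD2, NEUROD6 and TBR1. Of 22 genes of cortical glutamatergic identity, 9 rose and 1 fell, with a median of 0.50 on the log2 scale beside -0.0017 over all genes tested. Apart from the NEUROD and TBR1 factors the rises included the vesicular glutamate transporters SLC17A7 (1.29) and SLC17A6 (1.30), which load glutamate into synaptic vesicles, BCL11B (0.87), a factor of subcerebral projection neurons, and NFIB (0.59), while FOXP2 fell (-0.48). Of 8 proneural and intermediate progenitor genes 4 rose, with a median of 1.00: NEUROG2 (1.195), INSM1 (1.24), NHLH1 (1.19) and NHLH2 (1.51). When 1 tag was left out, NEUROG2 lost its call in 3 and INSM1 in 4 of 8 fits. Of 14 genes of the neuronal cytoskeleton 6 rose, among them STMN2 (1.11), a tubulin-binding protein of growing axons, DCX (0.97), INA (1.32) and MAPT (0.67), and the median was 0.46. MAPT lost its call without AcCoc tag 3 or Vehic tag 3. Of 16 presynaptic genes 5 rose, with a median of 0.39, including SNAP25 (0.95), which drives vesicle fusion, SYT4 (1.05), UNC13A (0.77) and CPLX2 (0.76). These are values over all cells, and no member of these lists passed within the excitatory class. With the class make-up held fixed, as described below, the limma medians fell. They went from 0.39 to 0.20 for the cytoskeleton, from 0.35 to 0.10 for presynaptic genes and from 0.71 to 0.23 for proneural genes.

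Receptor and glial lists had from 1 to 3 called members each. Of 13 GABA receptor subunits 3 rose, among them GABRB2 (0.75). Of 20 glutamate receptor subunits 1 rose, GRIA2 (0.98), the AMPA subunit that limits calcium entry, and 1 fell, GRIN2A (-0.60). Of 9 genes of GABAergic identity 1 rose, GAD2 (0.82), an enzyme that makes GABA. Among glial lists, 2 of 16 radial glia genes rose, FABP7 (0.82) and PTPRZ1 (0.39), and 1 of 14 genes of the astrocyte list rose, the glutamate transporter SLC1A2 (0.49). The AcCoc and Vehic tags of SLC1A2 overlapped, its call was lost in 5 of the 8 fits that left out 1 tag, and in these cultures it was higher in the excitatory class, at 329.7 CPM over the pooled cells, than in astrocyte-like cells, at 32.7 CPM. Of 20 extracellular matrix genes 3 fell, COL4A1 (-0.56), COL5A2 (-0.58) and LAMC1 (-0.34), with a median of -0.46. MBP, a myelin protein, was the 1 oligodendrocyte lineage gene of 5 that fell (-0.75), and 0 of 20 cell cycle genes passed, with a median of 0.01. In the 8 fits that left out 1 tag, GRIN2A lost its call in 6, PTPRZ1, SLC1A2 and LAMC1 in 5 each and COL5A2 in 7, while GABRB2, GRIA2, GAD2, FABP7, COL4A1 and MBP kept theirs in all 8.

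The molecules cocaine binds or that break it down were in part too scarce to test. Over the 4 tags of a group, the dopamine transporter SLC6A3 had 21 counts in AcCoc and 29 in Vehic, the noradrenaline transporter SLC6A2 13 and 10, and the esterase CES1 6 and 9. The serotonin transporter SLC6A4 was at 2.1, 2.59, 2.08 and 2.07 CPM against 2.96, 2.52, 2.2 and 2.32 CPM, a difference of -0.18 that did not pass. Of the 10 members of this list tested, 3 rose, all of them voltage-gated sodium channel subunits. SCN2A, the main sodium channel of young excitatory neurons, was at 35.4, 45, 46.6 and 43.8 CPM against 22.9, 26.2, 15.6 and 30.8 CPM, with no overlap, a rise of 0.84 (SE 0.177, adjusted p 0.0118, edgeR). SCN3A rose by 0.56 (adjusted p 0.0276, edgeR) and SCN8A by 0.39 (adjusted p 0.0262, edgeR), but they lost their calls in 3 and 5 of the 8 fits that left out 1 tag, while SCN2A kept its call in all 8. These are values over all cells. Within the excitatory class SCN2A, SCN3A and SCN8A differed by 0.28, -0.08 and 0.02, and within neuron-like cells by 0.875, 0.09 and 0.16. None of these passed. With the class make-up held fixed, as described below, they differed by 0.39, 0.05 and 0.09 in the limma values. The differences of SCN1A (0.20), SCN9A (-0.26), CES2 (0.37) and BCHE (-0.15) did not pass.

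Of 12 dopamine signalling genes tested, 1 fell, beside 2.49% of all genes: MAOB (-0.77), which breaks down dopamine and is known from astrocytes; its call was lost in 6 of the 8 fits that left out 1 tag. TH, the rate-limiting enzyme of dopamine synthesis, had 4 counts in each group and the D1 receptor gene DRD1 13 and 29, both too few to test. Of 19 immediate early genes 0 passed, beside 6.09% of all genes, and their median was 0.08. FOS was at 20.9, 20.8, 15.9 and 17 CPM in the AcCoc tags and at 13.2, 11, 20.8 and 13.8 CPM in the Vehic tags, overlapping, with a difference of 0.35. EGR1 differed by 0.12. Of 10 CREB and BDNF pathway genes 1 rose, the CDK5 activator CDK5R1 (1.32), and 1 fell, the BDNF receptor NTRK2 (-0.37), which lost its call without AcCoc tag 3.

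Among metabolic and stress lists, cholesterol synthesis had 4 of 17 genes higher: HMGCS1 (0.43), IDI1 (0.50), MSMO1 (0.57) and SC5D (0.51), with a median of 0.36. ASNS (0.71) and PSAT1 (0.37), amino acid enzymes of the integrated stress response, were 2 of 11 that rose, and HSPH1 (0.55) and HSPD1 (0.37) were 2 of 12 heat shock chaperones. In the 8 fits that left out 1 tag, PSAT1 lost its call in all 8, ASNS, HSPD1 and HMGCS1 in 6 each, IDI1 in 5, SC5D in 3 and HSPH1 in 1, while MSMO1 kept it. No gene passed among the lists of neuropeptides, NRF2 targets, hypoxia and glycolysis, interferon response and p53 targets. The lists of other cell types that such cultures can hold (mesenchymal, choroid plexus, endothelial, microglia, muscle and pluripotent cells) likewise had 0 genes past the test. Their summed levels overlapped between the groups for mesenchymal markers, at 496 to 1358 CPM in AcCoc and 936 to 1737 CPM in Vehic, and for microglial markers, at 9.16 to 12.7 CPM and 9.35 to 13.8 CPM.

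The class make-up of the summed counts moved with these results. Cells of the excitatory class gave 25.7% of the counts in AcCoc and 5.90% in Vehic, cluster 3 gave 14.7% and 26.3%, and astrocyte-like cells gave 17.0% and 20.3%. To measure how far the values depended on this, every tag was given the same class make-up and tested with limma on log2(CPM + 1). This step was chosen after seeing the data. The make-up was fixed for the 5 tested classes and for all other cells together, which held 27.0% of the weight. The mix of classes inside those other cells was not held fixed, so class make-up can remain in these values. The excitatory class had 17.4% of the weight, and Vehic tag 3 held only 37 such cells. The part of so few cells in the loss of calls was not tested. Limma called 1074 genes (5.11%) with the make-up as it was and 1 gene (0.00475%) with the make-up held fixed, the mitochondrial ribosomal RNA MT-RNR2, at 14020 CPM ± 1385 in AcCoc and 7742 CPM ± 929 in Vehic. At an unadjusted p of 0.05 there were still 1476 genes. The median of the 12 largest rises went from 1.30 to 0.53 and that of the 12 largest falls from -1.11 to -0.73. All 12 rises kept a positive value, 0.37 to 0.77, and all 12 falls a negative one, -0.82 to -0.38. For the genes called higher the median went from 0.55 to 0.20 and for those called lower from -0.62 to -0.27.

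**Figure D3:**
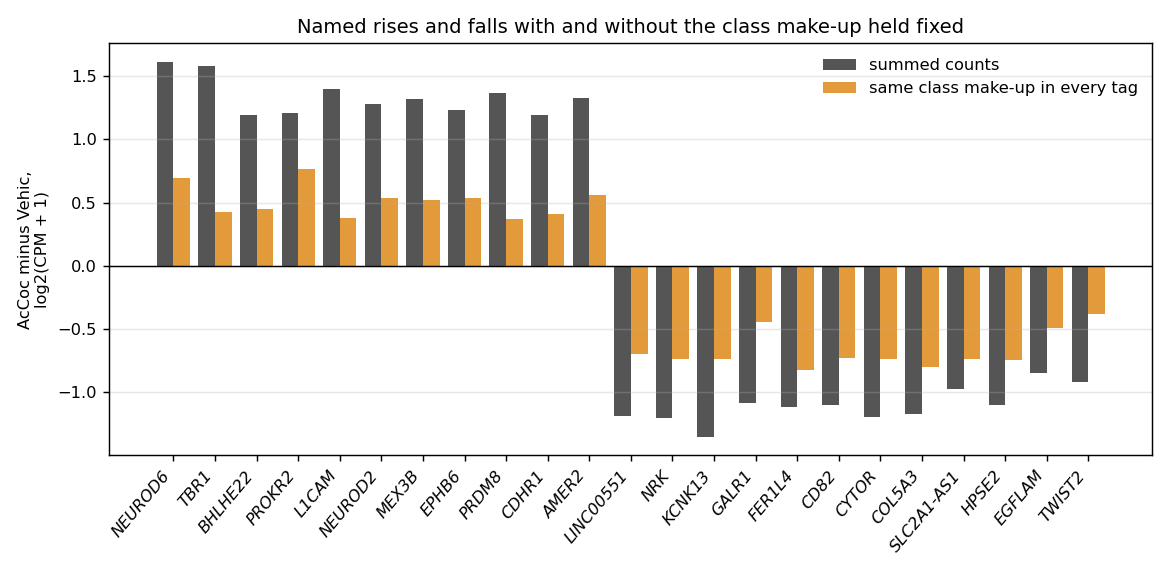
Log2 difference of AcCoc minus Vehic for the named rises and falls (bars) with the class make-up as measured and with every tag given the same make-up (limma on log2(CPM + 1)). The make-up was fixed for the 5 tested classes and for all other cells together. The 12 largest rises move from a median of 1.30 to 0.53 and the 12 largest falls from -1.11 to -0.73, with no change of sign.

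Within excitatory neuron-like cells, 16 of 12890 genes (0.124%) passed between AcCoc and Vehic, and 1128 had an unadjusted p under 0.05 by edgeR. The AcCoc tags held 174 to 367 of these cells and the Vehic tags 37 to 128. Of 21 cortical glutamatergic genes tested in the class 0 passed, with a median of -0.06. Differences that did not pass were 0.86 (SE 0.214) for NEUROD6, 0.69 for NEUROD2 and 0.39 for TBR1, and the 12 genes named for the largest rises over all cells had a median of 0.50 in the class. The class was made up differently in the groups, with 81.9% of its AcCoc cells and 70.4% of its Vehic cells in cluster 0 and 16.8% and 29.6% in cluster 18, and the part of this in the values below was not tested. ZBTB18, a zinc finger repressor needed for cortical neurons to mature, was at 142, 201, 177 and 211 CPM in the AcCoc tags and at 86.5, 98.4, 82.4 and 104 CPM in the Vehic tags. Every AcCoc tag was above every Vehic tag, and the gene rose by 0.98 (SE 0.155, adjusted p 0.00714, edgeR). SEMA3C, a secreted guidance molecule of cortical neurons and one of the genes that lead cluster 0, was at 1476, 1423, 1368 and 1383 CPM against 936, 916, 662 and 893 CPM, a rise of 0.72 (SE 0.106, adjusted p 0.00293). DIAPH2, a formin that acts on actin, was at 74.3, 94.3, 89.6 and 84.5 CPM against 154, 198, 175 and 164 CPM, a change of -1.01 (SE 0.135, adjusted p 0.000996). Over the pooled cells DIAPH2 was higher in cluster 3, at 216 CPM, than in this class, at 114.5 CPM. ZBTB18, SEMA3C, DIAPH2 and MT-RNR2, which rose by 1.12, kept their calls in every alternative setting tried, those that left out 1 tag included.

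The other 12 genes of the class were all lower. ATP7A, a copper transporter, was at 36, 37, 33.1 and 33.3 CPM in AcCoc and 51.8, 77.2, 92.7 and 81.9 CPM in Vehic, a change of -1.05 (adjusted p 0.0228, edgeR). IQCJ-SCHIP1, a readthrough transcript whose reads can belong to SCHIP1, was at 178, 242, 265 and 257 CPM against 337, 554, 367 and 573 CPM, a change of -0.96. MYO1E, a myosin of membrane traffic (-1.15), and ARHGAP20 (-0.95) were the other falls named by size. HOMER1, a scaffold of the postsynaptic density that was picked after its values were seen, was at 225, 186, 198 and 248 CPM against 282, 448, 319 and 439 CPM, a change of -0.80 (adjusted p 0.0299, edgeR). The 4 Vehic tags of HOMER1 spread more than the AcCoc tags but lay above all of them. Each of these 12 lost its call in 4 to 7 of the 8 fits that left out 1 tag. The 13 lower genes were long, with a median span of 487 kb beside 49.97 kb over all genes tested in the class. Genes over 300 kb as a whole had a median of -0.10 in the class and genes under 10 kb of 0.09. Of these, 0.755% and 0.100% were called. Among the 13 lower genes, 8 were higher in another class than in this one. The share of the class in the culture differed between the groups as well, and its part in these falls was not tested.

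**Figure D4:**
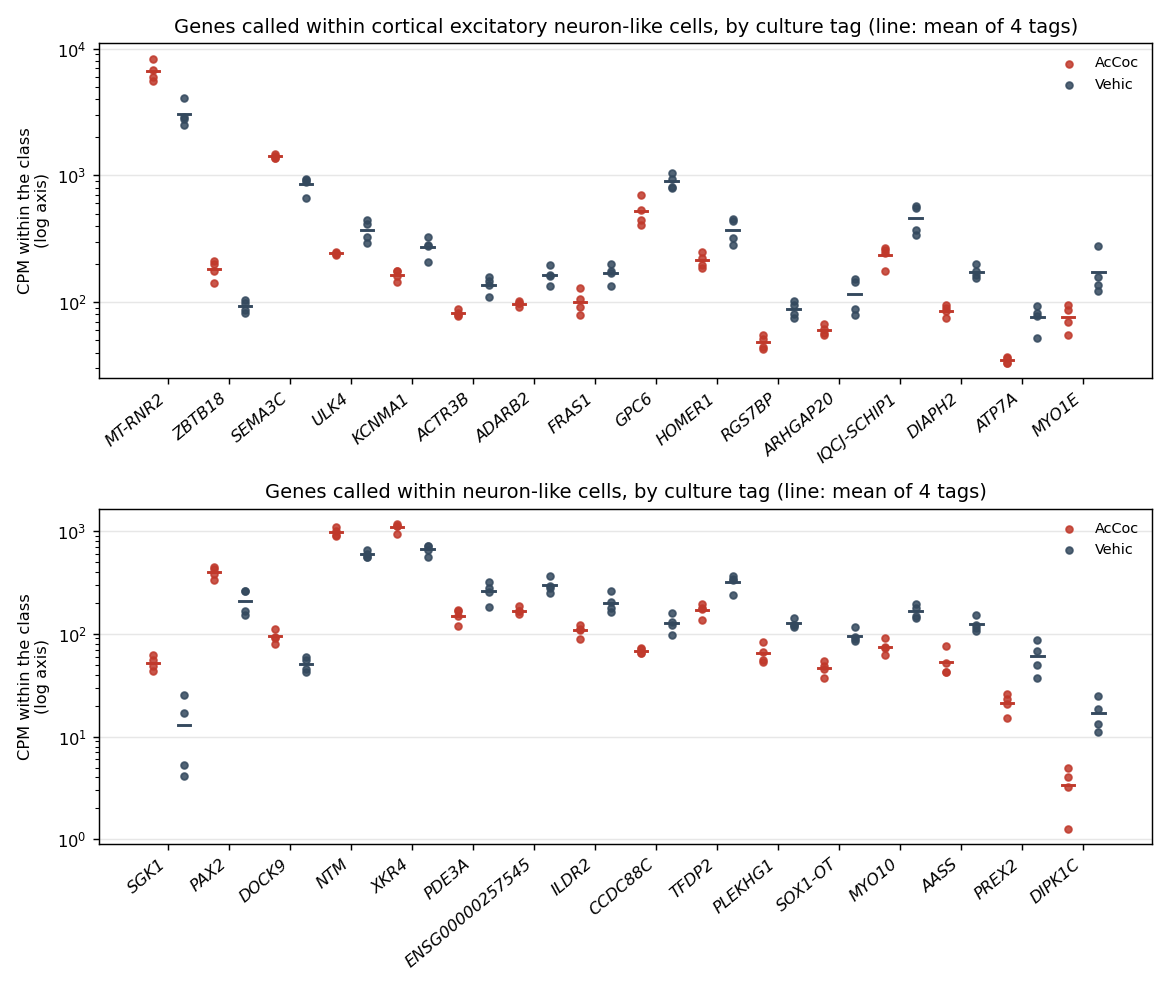
Level in CPM (log axis) of genes called between AcCoc and Vehic within a cell class, 1 point per tag, with a line at the mean of 4 tags. ZBTB18 and SEMA3C in the excitatory class and SGK1 and PAX2 in the neuron-like class are higher in all 4 AcCoc tags, and DIAPH2 and MYO10 are lower.

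Within neuron-like cells 16 of 11040 genes (0.145%) passed, with 1248 at an unadjusted p under 0.05. SGK1, a kinase induced by glucocorticoids and by stress, was at 61.9, 55.4, 49 and 43.2 CPM in AcCoc and at 25.4, 16.9, 5.35 and 4.11 CPM in Vehic. It rose by 1.68 (SE 0.333, adjusted p 0.045, edgeR), with the 2 lowest Vehic tags far under the other 2, and lost its call in 7 of the 8 fits that left out 1 tag. Those 2 tags held only 39 and 64 neuron-like cells, with 386734 and 490219 counts, so their SGK1 levels rest on very few counts. PAX2, a factor of spinal and hindbrain inhibitory neurons and one of the genes that lead the class, was at 330, 384, 431 and 446 CPM against 258, 151, 166 and 259 CPM, a rise of 0.91 (SE 0.156, adjusted p 0.0143). Without AcCoc tag 3 no gene of this class passed, PAX2 then having an adjusted p of 0.0787 by edgeR. The remaining rises were DOCK9 (0.86), NTM (0.72) and XKR4 (0.71). Of the 11 genes that fell, MYO10, a myosin of filopodia, was at 90.8, 74.5, 61.8 and 73.4 CPM against 149, 141, 179 and 195 CPM, a change of -1.13 (adjusted p 0.005, edgeR). AASS, an enzyme of lysine breakdown, was at 51.4, 76.4, 42.6 and 42.1 CPM against 115, 107, 152 and 121 CPM, a change of -1.18. DIPK1C (-2.23), PREX2 (-1.496) and SOX1-OT (-1.02) were the other falls named by size. DIPK1C was low in both groups, with means of 3.38 CPM in AcCoc and 16.9 CPM in Vehic. In the 8 fits that left out 1 tag, DIPK1C lost its call in all 8, SOX1-OT and DOCK9 in 7 each, PREX2 in 5, NTM in 4, AASS and XKR4 in 2 each and MYO10 in 1. Pooled levels were compared among the 5 tested classes only. All 11 of the lower genes were expressed more in another class than in neuron-like cells, whereas 4 of the 5 higher genes were highest in this class. Of the 11 lower genes 5, DIPK1C and SOX1-OT among them, were highest in cluster 3, which held more of the Vehic cells. AASS and PREX2 were highest in cycling cells and MYO10 in the excitatory class, and 9 of the 11, these 3 included, had a higher pooled CPM in cluster 3 than in neuron-like cells; the part of RNA from other cells in these falls was not tested.

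Astrocyte-like cells had 5 genes of 14362 past the test (0.0348%). EEF1A1, the translation elongation factor, was at 176, 202, 221 and 234 CPM in AcCoc and at 113, 119, 88.6 and 102 CPM in Vehic, a rise of 0.97 (adjusted p 0.0031, edgeR). CLU, a secreted chaperone of astrocytes, was at 185, 265, 160 and 245 CPM against 120, 112, 116 and 107 CPM, a rise of 0.91 (adjusted p 0.0107, edgeR), while over all cells its difference of 0.24 did not pass. COL5A3 was at 42, 37.4, 38.9 and 34.3 CPM against 83.8, 81.6, 68.4 and 63.1 CPM, so the fall seen over all cells was present within this class (-0.96, adjusted p 0.0343, edgeR). In cycling cells 6 genes of 11020 passed (0.0544%), among them the endoplasmic reticulum chaperone HSPA5, at 99.8, 171, 195 and 123 CPM against 50.8, 75.3, 86.5 and 79.6 CPM (1.05, adjusted p 0.0321, edgeR). The tubulin TUBB was at 78.5, 114, 95.5 and 105 CPM against 42.7, 47.1, 49.5 and 51 CPM in these cells (1.06, adjusted p 0.0286, edgeR). EEF1A1 kept its call when any 1 tag was left out, CLU lost it without AcCoc tag 2 or Vehic tag 2, and COL5A3, HSPA5 and TUBB lost theirs in 7, 6 and 7 of those 8 fits. In cluster 3 the 1 gene of 14237 that passed (0.00702%) was the mitochondrial ribosomal RNA MT-RNR1, with a rise of 1.24, and it lost its call in 4 of the 8 fits that left out 1 tag.

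Mitochondrially encoded transcripts were higher with cocaine in every class measured. Over all cells they were 3.89, 4.29, 3.83 and 4.21% of the counts in the AcCoc tags and 2.77, 3.06, 2.08 and 1.87% in the Vehic tags, with no overlap. In the excitatory class they were 1.58, 1.92, 1.86 and 2.29% against 0.734, 1.28, 0.605 and 0.597%. The means were 6.35% and 3.09% in astrocyte-like cells, 6.36% and 3.33% in cluster 3, 4.07% and 1.44% in cycling cells and 2.34% and 1.31% in neuron-like cells. In each of these and in cluster 28, of which 98.6% of the cells were called as doublets, the 4 AcCoc tags lay above the 4 Vehic tags (exact permutation p 0.0286 for each, adjusted 0.0286 over 7 tests). Gene by gene, MT-RNR2 in the excitatory class was at 5562, 6015, 6786 and 8343 CPM against 2903, 4092, 2776 and 2483 CPM (SE 0.144, adjusted p 0.000996, edgeR). MT-CO1, a subunit of cytochrome oxidase, rose by 0.52 over all cells and by 1.23 in cycling cells. MT-CO3 (1.23) and MT-ATP6 (1.22) rose in cycling cells too. When 1 tag was left out, MT-CO1 over all cells, and MT-CO3 and MT-ATP6 in cycling cells, lost their calls in 4 of 8 fits each, and MT-CO1 in cycling cells kept its call. The 13 mitochondrial protein genes were all above 0 in all 5 classes and over all cells, with medians from 0.35 to 1.02, but over all cells only MT-CO1 of the 13 passed. With the mitochondrial share of each tag as a covariate, an alternative chosen after seeing the data, 0 genes passed over all cells by edgeR, with 1470 at an unadjusted p under 0.05. All AcCoc tags lay above all Vehic tags in this share, so that fit cannot separate it from treatment. The fitted values of the 12 largest rises then ran from 0.58 to 2.00 and those of the 12 largest falls from -2.13 to -0.08. A high mitochondrial share is also a common sign of cell stress or damage during dissociation, and the deposited cells held a share of at most 9.998%. The share differed between the groups over all cells and within each class measured. Stress or damage cannot be told apart from treatment here, and any link to the class shares was not tested.

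**Figure D5:**
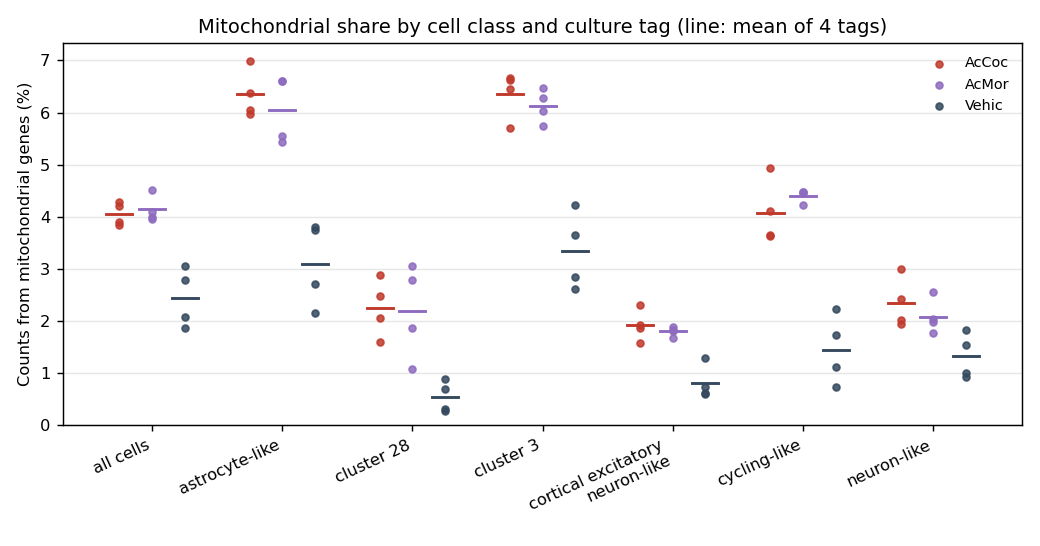
Share of counts from mitochondrially encoded genes, in percent, per tag (points) with the mean of 4 tags (line), for AcCoc, AcMor and Vehic in all cells and in each class. The AcCoc tags lie above the Vehic tags in all cells (3.83 to 4.29% against 1.87 to 3.06%) and in each class, and the AcMor tags lie near the AcCoc tags.

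The AcMor tags, compared with the same Vehic tags, are set beside these values because both treatments share their controls. Excitatory cells were 27.9% ± 1.93 of the AcMor tags, cluster 3 was 15.4%, and mitochondrial transcripts were 4.14% of the counts. Between AcMor and Vehic 205 genes passed (0.975%). All 12 largest rises and all 12 largest falls of AcCoc went the same way in AcMor. Of these, 10 rises and 4 falls passed between AcMor and Vehic by edgeR. The genes were picked for lying apart from the same Vehic tags, so this agreement was in part built in. Between AcCoc and AcMor over all cells 0 of 21032 genes passed by edgeR, with 914 at an unadjusted p under 0.05, and 0 passed when any 1 AcCoc tag was left out. Within the excitatory class 2 of 12890 genes (0.0155%) passed between AcCoc and AcMor, with 577 at an unadjusted p under 0.05 by edgeR. ADCY8, a calcium-stimulated adenylyl cyclase, was at 86.9 CPM ± 3.16 in AcCoc, 168 CPM ± 26.9 in AcMor and 123 CPM in Vehic, a difference of -0.94 between the treatments (SE 0.136, adjusted p 0.0075, edgeR). IQCJ-SCHIP1 was at 236 CPM in AcCoc, 519 CPM in AcMor and 458 CPM in Vehic, a difference of -1.14 between the treatments (adjusted p 0.0108, edgeR). ZBTB18 was at 148 CPM and DIAPH2 at 138 CPM in AcMor, between the AcCoc and Vehic means for both.

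The cocaine comparison was also set against the same comparison in fused organoids in 1 joint fit, which also held the AcMor tags of both arrangements. The difference between the culture arrangements passed for 1 of 23504 genes (0.00425%), PAX2. In fused organoids PAX2 was at 3.77 CPM ± 3.13 in AcCoc and 39.1 CPM ± 20.6 in Vehic, a fitted change of -3.26 (adjusted p 0.00779, edgeR), while in the co-culture its difference was 0.66 in that fit and did not pass (adjusted p 0.567, edgeR). That fit called 1 gene in the co-culture, against 1281 in the fit of the co-culture alone, in which PAX2 rose by 0.68 (adjusted p 0.0174, edgeR) and lost its call in 4 of the 8 fits that left out 1 tag. The difference between the arrangements was 3.92 (SE 0.58, adjusted p 0.0295, edgeR), and it was lost in 6 of the 8 fits that left out 1 tag.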

How the data were processed

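Single cells from H1-derived cultures were deposited as 1 gene-by-cell matrix for 8 sublibraries. Its values are expected counts, which the authors made with Salmon 1.7.0 and alevin on hg38 and handled with Seurat 4.1.1, per the submitters' processing notes; 54.3% of the deposited entries are whole numbers. The deposited cells had at least 1006 genes and at most 9.998% mitochondrial counts. Expected counts were summed per tag, rounded, and tested with edgeR 4.0.16 (quasi-likelihood, robust, TMM, filterByExpr, Benjamini-Hochberg adjusted p of 0.05) on the 12 co-culture tags, over all cells and within each class that had at least 20 cells in every AcCoc and Vehic tag. Log2 fold changes come from this fit. CPM per tag are counts per 1000000 of the TMM-adjusted total over the genes tested, for the tag or for the tag's cells in the class. The pooled CPM of a class and the CPM with the make-up held fixed use plain totals without TMM. Total counts ran from 7880353 to 16313041 per AcCoc or Vehic tag.

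No file annotates cells, so classes were rebuilt: all 43693 cells were grouped with leidenalg 0.10.2 at resolution 0.8 and named from marker genes. Doublets were called on 16.4% of cells and kept, and classes with over 50% doublets were not tested for genes. Shares were compared with exact two-sided permutation tests (scipy 1.17.1; 70 arrangements, smallest p 0.0286). The named genes were the 12 largest rises and 12 largest falls with no overlap between the tags, a symbol and at least 5 CPM, up to 4 called members per gene list, all tested cocaine targets, and up to 5 rises and 5 falls at 10 CPM or more per class. Some genes these rules pick are not reported here. Members and lists were chosen with earlier results of these data known. Alternatives used limma 3.58.1 and DESeq2 1.42.0. Tested on simulated data with 2-fold changes, edgeR recovered 71.3% of 195 changed genes over all cells, 57.9% of 195 in the excitatory class and 46.3% of 190 in the neuron-like class. Same-numbered AcCoc and Vehic tags did not deviate together (correlations -0.10, 0.08, 0.14 and -0.46), so the numbers were not used as pairs.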

Additional observations from a re-analysis of the deposited data

Results flagged for a closer look

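Of 201 groups of 4 tags looked at, 8 had a tag that stood apart from the other 3 of its group. Chance alone flags about 1 in 20 groups. NEUROD6 was lowest in Vehic tag 3, at 2.30 CPM over all cells, below the other Vehic tags at 6.37 to 6.73 CPM. SEMA3C in the excitatory class was also lowest in Vehic tag 3, at 662 CPM beside 893 to 936 CPM. EGFLAM was highest in Vehic tag 4, at 10.4 CPM, TWIST2 lowest in AcCoc tag 3, at 2.93 CPM, and PLEKHG1 in neuron-like cells highest in Vehic tag 4, at 144 CPM. SLC6A4, a cocaine target, was highest in AcCoc tag 2, at 2.59 CPM. The share of cluster 3 was lowest in AcMor tag 1, at 13.1% of cells, and the mitochondrial share of cycling cells lowest in AcMor tag 2, at 4.22% of counts.

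PAX2 stood out because the cocaine difference in the co-culture differed from that in fused organoids, by 3.92 on the log2 scale in the joint edgeR fit (adjusted p 0.0295).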

How the results depend on the processing

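The 1281 genes called over all cells became 770 with only AcCoc and Vehic tags, 2007 by DESeq2, 2586 without doublets, 2992 (1151 higher, 1841 lower) by limma with each cell weighted equally, 0 with the mitochondrial share as a covariate and 1 by limma with the class make-up held fixed, and 404 to 1432 when 1 tag was left out. Tag numbers are not stated to pair the tags; with them as a replicate block 945 genes were called (580 higher). Within classes the counts were, for the excitatory class (16), 10 with the replicate block, 5 with only AcCoc and Vehic tags, 85 by DESeq2, 126 with no filter on low counts and 4 to 36 without 1 tag. For neuron-like cells (16) they were 128 by DESeq2, 281 with no filter, 26 without doublets and 0 to 36 without 1 tag. For astrocyte-like cells (5) they were 1 with the block, 32 by DESeq2, 82 with no filter, 2 with mitochondrial genes left out and 2 to 4 without 1 tag. For cycling cells (6) they were 10 with the block, 19 by DESeq2, 54 with no filter, 11 without doublets, 0 with mitochondrial genes left out and 2 to 14 without 1 tag. For cluster 3 (1) they were 0 with only AcCoc and Vehic tags, 7 by DESeq2, 20 with no filter, 0 with mitochondrial genes left out and 0 to 3 without 1 tag. AcCoc against AcMor gave 2 calls with no filter, and the difference between culture arrangements gave 0 to 1 without 1 tag. The cause of these shifts was not tested, apart from fewer tags or genes where the setting itself removes them. The mitochondrial share did not overlap between the AcCoc and Vehic tags, so the fit with this covariate cannot separate it from treatment.

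No share changed direction. In percentage points, cluster 32 fell short with doublets removed (-0.801, adjusted p 0.25), and astrocyte-like cells at clustering resolution 1.2 (-0.94, adjusted p 0.0714). A sign-flip test with the tag number as block cannot go below 0.125, so the differences of 23.7 (excitatory), 5.60 (neuron-like), 30.3 (all neurons), -6.55 (astrocyte-like), -16.7 (cluster 3), -2.25 (cluster 32) and -1.97 (cluster 42) did not pass under it. Without 1 tag they were 22.2 to 25.7, 4.65 to 6.51, 28.2 to 32.7, -7.36 to -5.73, -17.8 to -15.1, -2.67 to -1.87 and -2.24 to -1.74, with adjusted p up to 0.0816 in exact tests of 3 against 4. Mesenchymal-like cells ranged from -3.63, which passed without Vehic tag 1, to -2.08.

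The 12 largest rises and 12 largest falls kept direction and call in 449 refits and lost the call in 54, of which 24 each came from the mitochondrial covariate and the fixed make-up. Without each tag in turn 21 of the 24 kept their call, against 25 of 55 other named genes over all cells. MAOB (0.03), GRIN2A (0.22), MT-RNR1 (-0.21) and XKR4 (-0.03) changed sign over all cells in 1 setting each. In simulated data at these depths, 46.3% of 2-fold changes were recovered in the neuron-like class.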

Other observations

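Some genes outside the rule for names were picked after their values were seen. SOX11, a factor of immature neurons, was at 98.4, 132, 194 and 148 CPM in the AcCoc tags and at 55.4, 57.8, 58.1 and 49.1 CPM in the Vehic tags, a rise of 1.38 over all cells (SE 0.159, adjusted p 0.000704, edgeR). The groups did not overlap. The nuclear RNA NEAT1 fell by 0.86, a call lost without AcCoc tag 3, without Vehic tag 3 and with no filter on low counts. MALAT1, another abundant nuclear RNA, differed by -0.04 and did not pass.

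Cytosolic ribosomal protein genes, a list added after seeing the data, had 2 of 80 members called higher and 0 lower over all cells, beside 3.6% and 2.49% of all genes. Their median was 0.27, beside -0.0017 over all genes, and 70 of 80 were above 0. With the class make-up held fixed, the medians of several lists moved: cortical glutamatergic genes went from 0.41 to -0.0011 in the limma values, and mitochondrial protein genes from 0.32 to 0.58. Heat shock chaperones went from 0.21 to 0.41 and extracellular matrix genes from -0.52 to -0.08.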
